A study of Mus musculus with 9 samples.

Results

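The MAP kinase phosphatases are dual-specificity phosphatases that switch off ERK, JNK and p38. The transcripts of 9 of them, Dusp1, Dusp2, Dusp4, Dusp5, Dusp6, Dusp7, Dusp8, Dusp10 and Dusp16, were followed in the submandibular salivary gland of the mouse. The genes were picked by symbol from a count table of 54532 genes because nuclear and cytoplasmic members had been seen to move in opposite directions at 60 days. Their differences to and from 60 days are therefore given as a description with no p-value, and where calls among them are counted, nothing is read from the count. The difference between 90 and 30 days was not named in that choice and was tested. It rests on the same libraries, as the steps to and from 60 days added together. A choice of genes that moved at 60 days and returned could therefore favour small differences there. All 9 genes passed the filter on low counts, which kept 15224 genes.

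Whole-tissue RNA was sequenced from glands of WT mice that had received 10 Gy of radiation, with 3 libraries each at 30, 60 and 90 days. The groups share genotype and dose and differ in the day of collection, so time since irradiation cannot be told apart from the age of the animals, and unirradiated glands were not analysed here. The labels do not say whether the 3 samples of a group came from separate animals, and p-values measure the spread between these samples. The libraries held 16541396 to 26065856 counts, and the 30-day libraries were the shallowest. The labelled tissue was checked against its markers. The summed level of 6 granular duct markers, genes of the convoluted ducts typical of this gland such as Egf, was 20500 to 47100 CPM (a gene's counts scaled to the depth of its library), that of 4 acinar markers was 1450 to 2450 CPM, and that of 4 skeletal muscle markers was at most 2.76 CPM, with Myh4, alone among all markers examined, at 0 in every library.

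MAP kinases are activated when a kinase phosphorylates a threonine and a tyrosine in their activation loop, and the dual-specificity phosphatases remove both phosphates. Dusp1, Dusp2, Dusp4 and Dusp5 encode nuclear enzymes, and most of these are induced within minutes of stimulation. Dusp6 and Dusp7 encode cytoplasmic enzymes that prefer ERK, and Dusp6 is a standard transcriptional readout of fibroblast growth factor and other ERK-activating signals. Dusp8, Dusp10 and Dusp16 encode enzymes that prefer JNK and p38 and are found in the nucleus and the cytoplasm. In the salivary gland, ERK signalling downstream of growth factor receptors drives branching and epithelial growth.

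Promoter sequences are shown for the 3 genes whose levels at 60 days stood farthest from those on the other days, Dusp1, Dusp5 and Dusp6, since each carries a different kind of motif known from signal-induced genes. RefSeq (GRCm38.p6) start sites were matched for 8 of the 9 genes, and no entry was found for Dusp4. Each sequence is the 250 bases before the start, read 5′ to 3′ on the gene's strand. Capitals mark cyclic AMP response element (CRE) core sites in Dusp1 (chr17:26508473-26508722, minus strand), CArG boxes, the sites of serum response factor, in Dusp5 (chr19:53528895-53529144, plus strand), and ETS core sites in Dusp6 (chr10:99262981-99263230, plus strand).
Dusp1: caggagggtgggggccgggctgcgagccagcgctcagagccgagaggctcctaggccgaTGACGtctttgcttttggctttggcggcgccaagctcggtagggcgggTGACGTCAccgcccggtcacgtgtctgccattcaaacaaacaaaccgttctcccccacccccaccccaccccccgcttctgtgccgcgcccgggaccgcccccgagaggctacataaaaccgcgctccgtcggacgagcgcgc
Dusp5: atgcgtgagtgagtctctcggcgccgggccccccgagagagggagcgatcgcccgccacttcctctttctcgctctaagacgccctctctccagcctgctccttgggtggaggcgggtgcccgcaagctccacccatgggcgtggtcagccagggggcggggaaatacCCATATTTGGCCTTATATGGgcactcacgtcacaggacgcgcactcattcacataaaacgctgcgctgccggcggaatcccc
Dusp6: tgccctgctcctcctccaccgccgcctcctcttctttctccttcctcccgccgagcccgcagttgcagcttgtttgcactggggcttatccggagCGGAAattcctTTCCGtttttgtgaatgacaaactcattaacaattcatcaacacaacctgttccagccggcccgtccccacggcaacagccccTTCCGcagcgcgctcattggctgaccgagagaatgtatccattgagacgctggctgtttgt

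Motifs were searched on both strands in 32851 promoter windows of the same length, covering 27025 gene symbols. The CRE core site (TGACG, or CGTCA on the other strand) occurred 3 times before Dusp1, and its last pair overlapped in a full CRE (TGACGTCA) that began 143 bases before the start. At least 3 core sites occurred in 0.688% of all windows, and a full CRE in 1.55%. The Dusp5 window held 2 adjoining CArG boxes, which began 82 and 72 bases before the start, and 0.0183% of all windows held at least 2. It also held 1 CRE core and 1 ETS core. The Dusp6 window held 3 ETS cores (CGGAA, or TTCCG on the other strand), which began 155, 144 and 61 bases before the start, against 2.12% of all windows with at least 3. Among the other members, Dusp8 had 2 full CREs (0.0304% of all windows had at least 2) and Dusp16 had 1 CRE core, whereas the windows of Dusp2, Dusp7 and Dusp10 held none of these letters. The AP-1 site (TGANTCA), the glucocorticoid receptor core site (AGAACA) and the TEAD site (GGAATG) occurred in 0 of the 8 windows, against 6.75%, 16.1% and 12.6% of all windows. These are matches of letters in a window, with no binding data behind them.

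Dusp6 (ENSMUSG00000019960, chr10:99263231-99267489, plus strand) was the most abundant member at 30 days. It encodes the cytoplasmic phosphatase that binds ERK and is itself induced by ERK. After TMM scaling (trimmed mean of M-values), its level was 114, 97.6 and 101 CPM at 30 days, 34.7, 36.5 and 38.7 CPM at 60 days, and 75.9, 102 and 86.9 CPM at 90 days. Every 60-day library was below every other library, and the 30- and 90-day values overlapped. The level at 60 days was 2.84-fold lower than at 30 days (log2 fold change -1.51 ± 0.12, SE), and the level at 90 days was 2.41-fold higher than at 60 days (1.27 ± 0.12). For comparison, 95% of all genes tested lay between -0.91 and 0.87 in the first comparison and between -0.62 and 0.98 in the second. In bulk tissue, fewer cells of a type and less RNA per cell cannot be told apart.

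Dusp5 (ENSMUSG00000034765, chr19:53529109-53542431, plus strand) moved the other way. Its product is a nuclear phosphatase that binds and dephosphorylates ERK. The level was 16.7, 14.9 and 14.1 CPM at 30 days, 31.5, 30.6 and 32.9 CPM at 60 days, and 14.6, 9.76 and 8.13 CPM at 90 days. All 60-day libraries were above all others, and within 60 days they spread little (31.7 ± 1.16 CPM, SD, n = 3). The log2 fold change was 1.06 ± 0.16 from 30 to 60 days (2.08-fold higher) and -1.54 ± 0.16 from 60 to 90 days (2.90-fold lower). The 90-day group was less even, and without its sample 1 the latter value was -1.83. Of the exon bases of Dusp5, 547 (22.1%) are shared with the antisense gene AC137853.2, which is not among the genes counted. Since no use of strand is recorded, reads from that gene cannot be told apart from those of Dusp5.

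Dusp1 (ENSMUSG00000024190, chr17:26505590-26562128, minus strand) encodes the nuclear phosphatase that acts on p38, JNK and ERK and is an immediate early and glucocorticoid-induced gene. The libraries read 3.97, 6.78 and 6.22 CPM at 30 days, 21.4, 19.1 and 38.8 CPM at 60 days, and 8.29, 5.64 and 6.48 CPM at 90 days. All 60-day libraries were above the rest, with sample 3 highest. The level was 4.64-fold higher at 60 than at 30 days (log2 2.21 ± 0.30) and 3.88-fold lower at 90 than at 60 days (-1.96 ± 0.28). Without sample 3 of the 60-day group these values were 1.83 and -1.58. The counts behind them ran from 56 to 930 per library. Only 11 exon bases (0.332%) are shared with Ergic1 on the opposite strand.

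**Figure D1:**
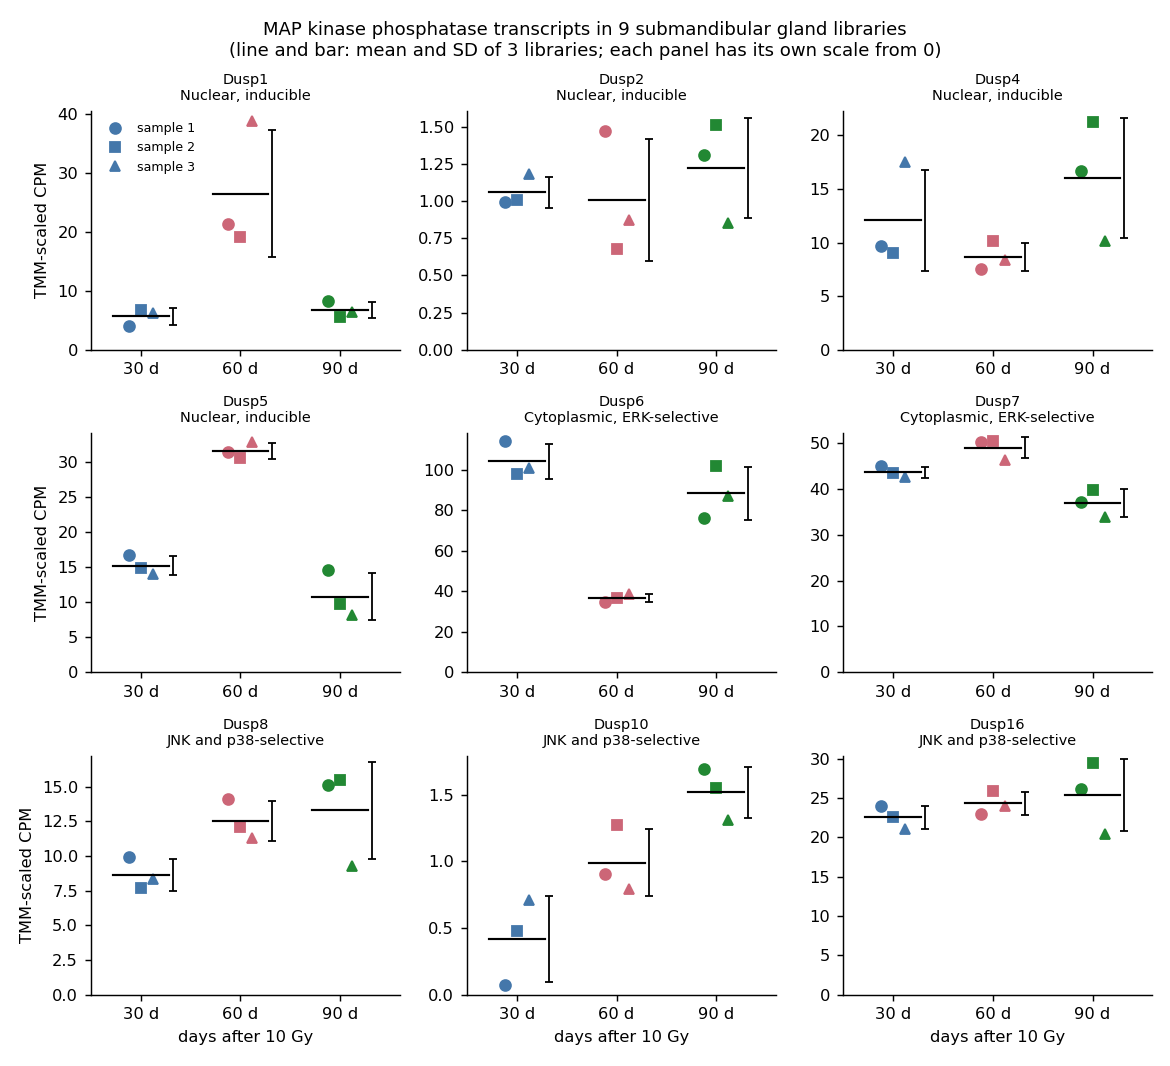
Scaled level (TMM-scaled CPM, y axis, own scale from 0 in each panel) of each phosphatase gene against days after 10 Gy. Symbols are libraries, lines are means and bars are SDs of 3 libraries. The Dusp1 and Dusp5 libraries of 60 days lie above, and those of Dusp6 below, all other libraries.

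The other nuclear and cytoplasmic members did not divide by compartment. Dusp4 (ENSMUSG00000031530, chr8:34807297-34819894, plus strand), a nuclear ERK and JNK phosphatase, read 9.71, 9.03 and 17.5 CPM at 30 days, 7.51, 10.1 and 8.34 CPM at 60 days, and 16.7, 21.2 and 10.1 CPM at 90 days. The 3 groups overlapped. Its log2 values of -0.48 ± 0.31 and 0.89 ± 0.30 had the signs of Dusp6, not of Dusp1 and Dusp5. Dusp7 (ENSMUSG00000053716, chr9:106368632-106375724, plus strand), the cytoplasmic relative of Dusp6, read 44.9, 43.5 and 42.5 CPM, then 50.2, 50.4 and 46.3 CPM, then 37.1, 39.8 and 33.8 CPM. These 3 groups did not overlap, with 60 days highest and 90 days lowest, and the log2 values of 0.17 ± 0.10 and -0.41 ± 0.10 had the signs of Dusp5. Under library-size scaling the latter was -0.22. Dusp2 (ENSMUSG00000027368, chr2:127336159-127338376, plus strand), the nuclear phosphatase best known from activated lymphocytes, stayed between 0.678 and 1.51 CPM on 14 to 44 counts, all groups overlapped, and the sign of its small difference at 60 days (-0.08 ± 0.43) depended on which library was left out.

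The JNK and p38 phosphatases did not share a common course. Dusp8 (ENSMUSG00000037887, chr7:142079490-142095843, minus strand) read 9.92, 7.67 and 8.35 CPM at 30 days, 14.1, 12.1 and 11.3 CPM at 60 days, and 15.1, 15.5 and 9.29 CPM at 90 days. The 60-day libraries were above the 30-day ones, and at 90 days sample 3 lay in the 30-day range. The log2 fold change was 0.53 ± 0.19 to 60 days and 0.10 ± 0.18 from there to 90 days. Dusp10 (ENSMUSG00000039384, chr1:184013302-184075636, plus strand), which restrains JNK and p38 in innate and epithelial stress responses, was close to the limit of detection. It had 1, 8 and 12 counts at 30 days, 21, 28 and 19 at 60 days and 50, 45 and 26 at 90 days, or 0.0709, 0.476 and 0.71 CPM, 0.906, 1.27 and 0.793 CPM, and 1.69, 1.55 and 1.31 CPM. Each group lay above the one before it without overlap, although 1 of the 30-day libraries was under a floor of 3 counts, which covers counting error only. The steps were 1.19 ± 0.54 and 0.62 ± 0.46 on the log2 scale. Dusp16 (ENSMUSG00000030203, chr6:134715468-134792625, minus strand), a JNK-directed phosphatase, was between 20.4 and 29.4 CPM in all libraries, with overlapping groups and log2 values of 0.11 ± 0.13 and 0.06 ± 0.13.

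Counted over the 9 genes, 2 were called higher and 1 lower at 60 than at 30 days at an adjusted p under 0.05, against 1.56% of all genes tested (1.14% higher and 0.427% lower). From 60 to 90 days, 1 was called higher and 2 lower, against a background of 0.256% (0.092% higher and 0.164% lower). Groups did not overlap for 6 genes from 30 to 60 days, with 5 higher and 1 lower, against 16.9% of all genes (8.65% higher and 8.22% lower). From 60 to 90 days they did not overlap for 5 genes, with 2 higher and 3 lower, against 15.9% of all genes (8.3% higher and 7.64% lower). The count of calls from 60 to 90 days changed with the processing. Dusp1 dropped out of it in 3 of 17 alternatives. These were library-size scaling and leaving out 90-day sample 2 or 3. Dusp7 was called lower in 2 of the 17 alternatives, and Dusp4 higher in 1. The genes were chosen on these differences, so nothing is read from the counts or from how often they held. The median log2 fold change of the 9 was 0.17 and then 0.10, and that of all genes was 0.00 both times.

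**Figure D2:**
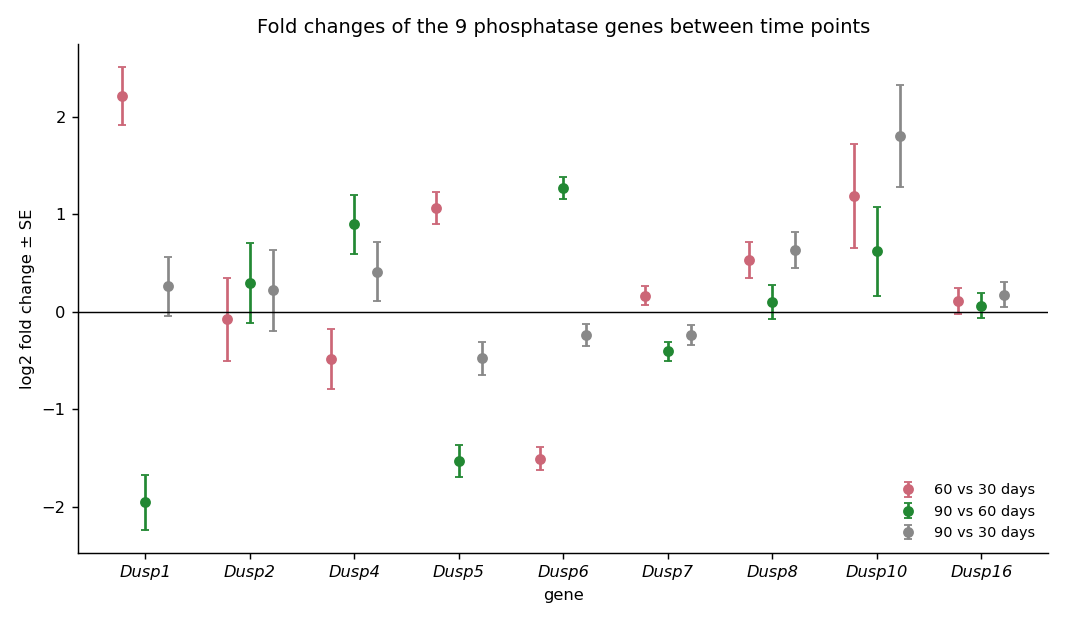
Log2 fold change with its standard error (y axis) of each phosphatase gene (x axis) in the 3 pairwise comparisons from the model with all 9 libraries. Dusp1 and Dusp5 have positive values from 30 to 60 days and negative ones from 60 to 90 days, Dusp6 the reverse, and the values from 30 to 90 days run from -0.48 to 1.80.

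Between 90 and 30 days the differences were smaller for Dusp1, Dusp5 and Dusp6 than at 60 days. The choice of genes by their moves at 60 days could favour this. At an adjusted p under 0.05, 0 of the 9 genes were called by edgeR, against 3.57% of all genes tested (1.81% higher and 1.77% lower), and 4 had an unadjusted p under 0.05 (16.8% of all genes). The same comparison called 0 with DESeq2-type size factors and 0 with limma-voom, but 2 with DESeq2, Dusp8 and Dusp10. Dusp10 had the largest difference (log2 1.80 ± 0.52, 3.49-fold higher, adjusted p = 0.0619), with all 90-day libraries above all 30-day ones. Without sample 3 of the 30-day group it was 2.38 (adjusted p = 0.0401), and without sample 1 of that group 1.35 (adjusted p = 0.232, the highest). It was not called under 12 of its 16 alternatives. Dusp8 was higher by 0.63 ± 0.19 (adjusted p = 0.066), or by 0.82 without sample 3 of the 90-day group (adjusted p = 0.0184) and 0.50 without sample 2 of that group (adjusted p = 0.318, the highest). It was not called under 12 of its 17 alternatives.

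Dusp5 at 90 days was -0.48 ± 0.17 against 30 days (adjusted p = 0.143). Leaving out sample 1 of the 90-day group gave -0.76 (adjusted p = 0.0073), and library-size scaling gave -0.23 (adjusted p = 0.536). The 90-day level of Dusp6 was -0.24 ± 0.11 on the log2 scale (adjusted p = 0.299) and that of Dusp7 was -0.24 ± 0.10 (adjusted p = 0.226). Both values were near 0 under library-size scaling, at 0.00 and -0.01. Dusp7 was the single gene of the 9 whose 90-day libraries all lay below its 30-day libraries, and Dusp10 the single one whose libraries all lay above, against 23.2% of all genes with no overlap. The values for Dusp1 (0.26 ± 0.31, adjusted p = 0.754), Dusp4 (0.41 ± 0.30, adjusted p = 0.557), Dusp2 (0.22 ± 0.42, adjusted p = 0.861) and Dusp16 (0.17 ± 0.13, adjusted p = 0.558) came from overlapping groups.

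Levels of different genes were compared per length, as CPM per kilobase of exon (GENCODE M21). At 30 days Dusp6 led with 33.3 ± 2.67 (SD, n = 3), ahead of Dusp7 with 13.0 ± 0.365. Dusp5 (6.15 ± 0.533) and Dusp4 (4.41 ± 1.71) followed with overlapping libraries. Next came Dusp16 at 2.89 ± 0.189, then Dusp8 (1.78 ± 0.238) and Dusp1 (1.71 ± 0.449), which overlapped, and last Dusp2 at 0.53 ± 0.0528 and Dusp10 at 0.138 ± 0.106. At 60 days the leading 3 lay close together, with Dusp7 at 14.6 ± 0.686, Dusp5 at 12.8 ± 0.469 and Dusp6 at 11.7 ± 0.648. Dusp1 stood at 7.98 ± 3.26, and its highest library, at 11.7, reached into the range of Dusp6. The order at the lower end was Dusp4 (3.16), Dusp16 (3.12), Dusp8 (2.56), Dusp2 (0.503) and Dusp10 (0.325), where Dusp4 overlapped both Dusp16 and Dusp8, and Dusp2 overlapped Dusp10. At 90 days Dusp6 led again with 28.2 ± 4.25, then Dusp7 with 11 ± 0.896, and Dusp4 (5.84 ± 2.04) stood above Dusp5 (4.38 ± 1.37) with overlapping libraries.

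The sum over the 9 genes was 63.9 ± 3.09 CPM per kilobase at 30 days, 56.7 ± 3.10 at 60 days and 58.6 ± 7.10 at 90 days. The 60-day libraries (54.8 to 60.3) lay just below the 30-day ones (60.6 to 66.8), and the 90-day libraries overlapped both. The make-up differed more. The cytoplasmic pair held 72.4 ± 2.15% of the sum at 30 days, 46.4 ± 2.69% at 60 days and 67.1 ± 5.58% at 90 days, and the 60-day libraries (43.4 to 48.5%) did not overlap the others (61.4% and above). The nuclear inducible genes held 20.1 ± 2.39%, 42.9 ± 3.77% and 21.9 ± 4.26%. Within these classes, the share of Dusp6 went from 52.0 ± 2.04% to 20.6 ± 0.508% and then 48.3 ± 5.62%, that of Dusp7 from 20.4% to 25.8% and 18.8%, that of Dusp5 from 9.63% to 22.6% and 7.52%, and that of Dusp1 from 2.70% to 13.9% and 3.56%. Of the other nuclear genes, Dusp4 went from 6.89% to 5.59% and 9.79%, and Dusp2 from 0.832% to 0.892% and 1.03%. Dusp8, Dusp10 and Dusp16 together held 7.52 ± 0.249% at 30 days, 10.6 ± 1.09% at 60 days and 11 ± 1.37% at 90 days.

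**Figure D3:**
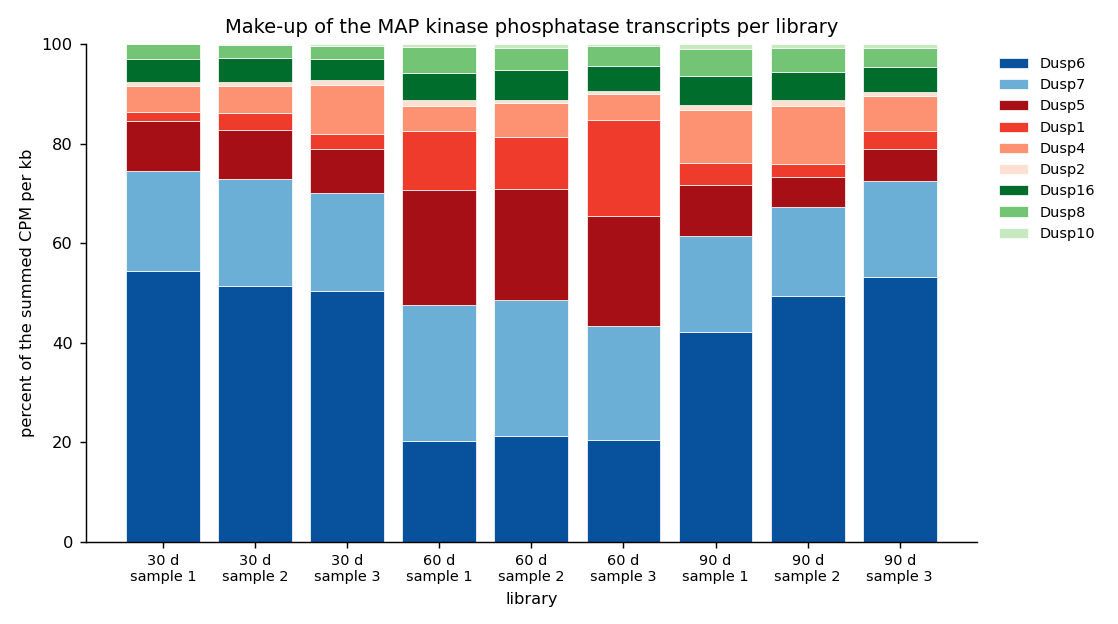
Share of each gene (percent of the CPM per kilobase summed over the 9 phosphatase genes, y axis) in each library (x axis), cytoplasmic genes in blue, nuclear inducible genes in red and JNK- and p38-selective genes in green. The Dusp6 block shrinks to between 20.2 and 21.2% in the 60-day libraries.

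Ratios of counts within a library do not depend on how libraries are scaled. They are not corrected for length, and only their differences between libraries are compared. Dusp5 counts were 14.7, 15.2 and 13.9% of the Dusp6 counts at 30 days, 90.9, 83.7 and 84.9% at 60 days, and 19.3, 9.53 and 9.36% at 90 days. The 60-day values stood far outside both other groups, with a mean log2 ratio of -0.21 ± 0.06 against -2.77 ± 0.07 and -3.06 ± 0.59. Dusp1 counts were 3.50, 6.94 and 6.14% of the Dusp6 counts at 30 days, 61.6, 52.2 and 100% at 60 days, and 10.9, 5.50 and 7.45% at 90 days. The 2 cytoplasmic genes also parted from each other, since Dusp7 counts were 39.6 to 44.6% of the Dusp6 counts at 30 days, 120 to 145% at 60 days and 38.9 to 48.9% at 90 days. The ratio of Dusp1 to Dusp5 was less distinct, at 23.8 to 45.6%, 62.4 to 118% and 56.7 to 79.6%, so that the 60- and 90-day libraries overlapped.

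**Figure D4:**
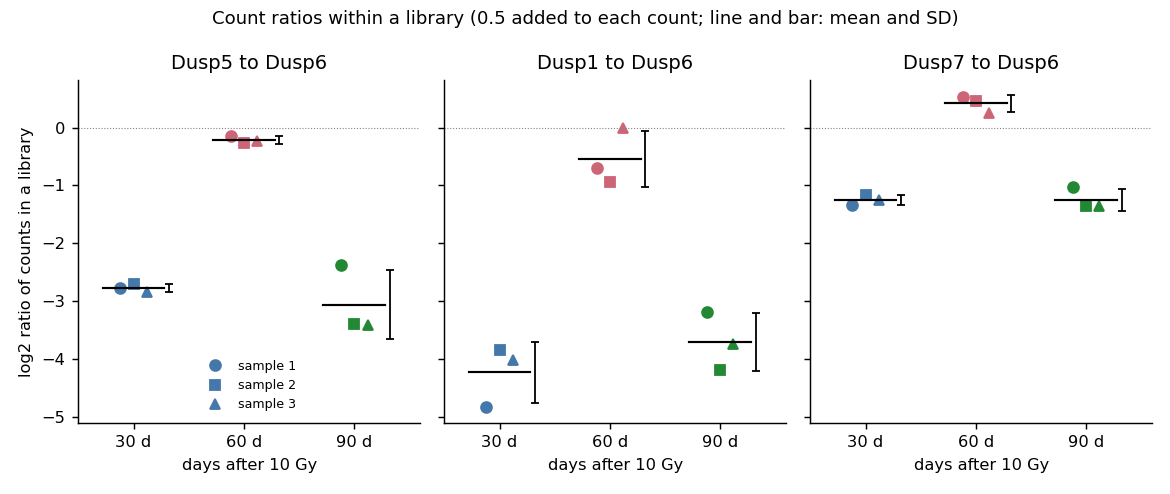
Log2 ratio of raw counts within a library (y axis, 0.5 added to each count) for Dusp5, Dusp1 and Dusp7 relative to Dusp6 against days after 10 Gy, with the mean and SD of 3 libraries. In each panel the 60-day libraries lie above those of 30 and 90 days.

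The kinases that these enzymes act on were examined as a list. For this list and those below, the shares of all genes serve as the comparison. By edgeR, 1.56%, 0.256% and 3.57% of all genes were called from 30 to 60, 60 to 90 and 30 to 90 days. An unadjusted p under 0.05 was found for 12.4%, 10.8% and 16.8% of them. Of 10 MAP kinase genes, 9 passed the filter, and 1 was called higher and 0 lower at 60 than at 30 days. That gene was Mapk13, a p38 isoform, which read 28.3, 34.1 and 36.7 CPM at 30 days and 55.9, 45.4 and 42.8 CPM at 60 days without overlap (log2 0.54 ± 0.12, adjusted p = 0.0285), and was also higher at 90 than at 30 days (0.57 ± 0.12, adjusted p = 0.0121). Mapk12, another p38 isoform, was lower at 90 than at 30 days (-0.60 ± 0.15, adjusted p = 0.0276). Both depended on single libraries and on the analysis. Under library-size scaling Mapk12 was at -0.36 (adjusted p = 0.327) and Mapk13 for 60 against 30 days had an adjusted p of 0.162, which was 0.0509 with only the 6 libraries of those days. The adjusted p of Mapk13 for 60 against 30 days was 0.162 and 0.0904 without sample 1 or 2 of the 30-day group, and 0.0955 and 0.0898 without sample 1 or 2 of the 60-day group. For 90 against 30 days it was 0.0858 without 30-day sample 1 and 0.0644 without 90-day sample 3. That of Mapk12 was 0.173 and 0.107 without 30-day sample 1 or 2, and 0.0601, 0.0602 and 0.123 without 90-day sample 1, 2 or 3. Mapk3 (ERK1) had means of 45.9 ± 2.36, 52.5 ± 3.40 and 52.2 ± 3.43 CPM. Mapk8 (JNK1) had means of 19.4 ± 0.697, 17.1 ± 2.6 and 16.4 ± 1.33 CPM, and Mapk14 (p38 alpha) of 49.1 ± 1.28, 55.5 ± 1.46 and 47.8 ± 1.81 CPM. Between 90 and 30 days their log2 values were 0.19 for Mapk3 (adjusted p = 0.364), -0.25 for Mapk8 (adjusted p = 0.364) and -0.04 for Mapk14 (adjusted p = 0.891). Upstream, 7 MAP kinase kinases and 14 Ras and Raf genes all passed the filter, and 0 were called by edgeR, DESeq2 or limma-voom in any of the 3 comparisons. Unadjusted p-values under 0.05 in edgeR numbered 0 for the MAP kinase kinases, and 0, 2 and 0 for the Ras and Raf genes from 30 to 60, 60 to 90 and 30 to 90 days.

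Genes that report ERK activity had mostly lower values at 60 days. Of 14 listed genes, 13 were in the table and passed the filter. From 30 to 60 days 2 of them fell and 0 rose by edgeR, against 1.56% of all genes called. An unadjusted p under 0.05 was found for 6, against 12.4% of all genes. Values were negative for 10 of 13, with a median of -0.33 on the log2 scale beside 0.00 over all genes. DESeq2 called the same 2 and also 1 higher, Ier3, an apoptosis-related ERK target named after its value was seen (edgeR 0.70 ± 0.18, adjusted p = 0.0543, groups not overlapping). The lists were drawn up with earlier results of these data known, so the direction is no independent evidence. Phlda1, an ERK-induced gene, read 224, 222 and 214 CPM at 30 days, 149, 136 and 127 CPM at 60 days and 172, 166 and 179 CPM at 90 days. Its 60-day libraries were the lowest without overlap (log2 -0.68 ± 0.10, adjusted p = 0.00139), and the call held under all 17 alternatives. Etv1, an ETS factor, fell from 177 ± 27.2 to 123 ± 4.32 CPM (-0.53 ± 0.12, adjusted p = 0.0297) and was at 123 ± 15.2 CPM at 90 days (-0.52 ± 0.12 against 30 days, adjusted p = 0.0183). Sample 1 of the 30-day group, at 208 CPM, was its highest library, and without it the values were -0.39 (adjusted p = 0.182) and -0.39 (adjusted p = 0.129). Leaving out any 60-day library, 30-day sample 2 or 90-day sample 3 also put its adjusted p at 60 days above the threshold, at 0.0504 to 0.130, and leaving out 90-day sample 2 or 3 that at 90 days, at 0.124 and 0.0719. Library-size scaling gave -0.46 (adjusted p = 0.238) and -0.29 (adjusted p = 0.296).

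The feedback inhibitors Spry2 and Spry4, which block growth factor signalling to ERK, read 14.9 ± 0.491, 11.8 ± 0.351 and 14.1 ± 1.74 CPM, and 3.30 ± 1.51, 2.17 ± 0.426 and 3.47 ± 0.0633 CPM. From 30 to 60 days Spry2 differed by -0.33 ± 0.13 (adjusted p = 0.297) and Spry4 by -0.61 ± 0.30 (adjusted p = 0.423). The ETS factors Etv4 and Etv5, targets of fibroblast growth factor signalling, differed by -0.96 ± 0.56 (adjusted p = 0.522) and -0.37 ± 0.40 (adjusted p = 0.775). From 60 to 90 days 11 of the 13 genes had positive values, with a median of 0.29. There 0 were called by edgeR, with 6 at an unadjusted p under 0.05 (10.8% of all genes), 0 by limma-voom, and 1 by DESeq2, Spry1. Etv5 differed most in that step (1.00 ± 0.38, adjusted p = 0.427), with 90-day libraries of 13.2, 29.3 and 28.7 CPM that overlapped the 60-day ones.

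**Figure D5:**
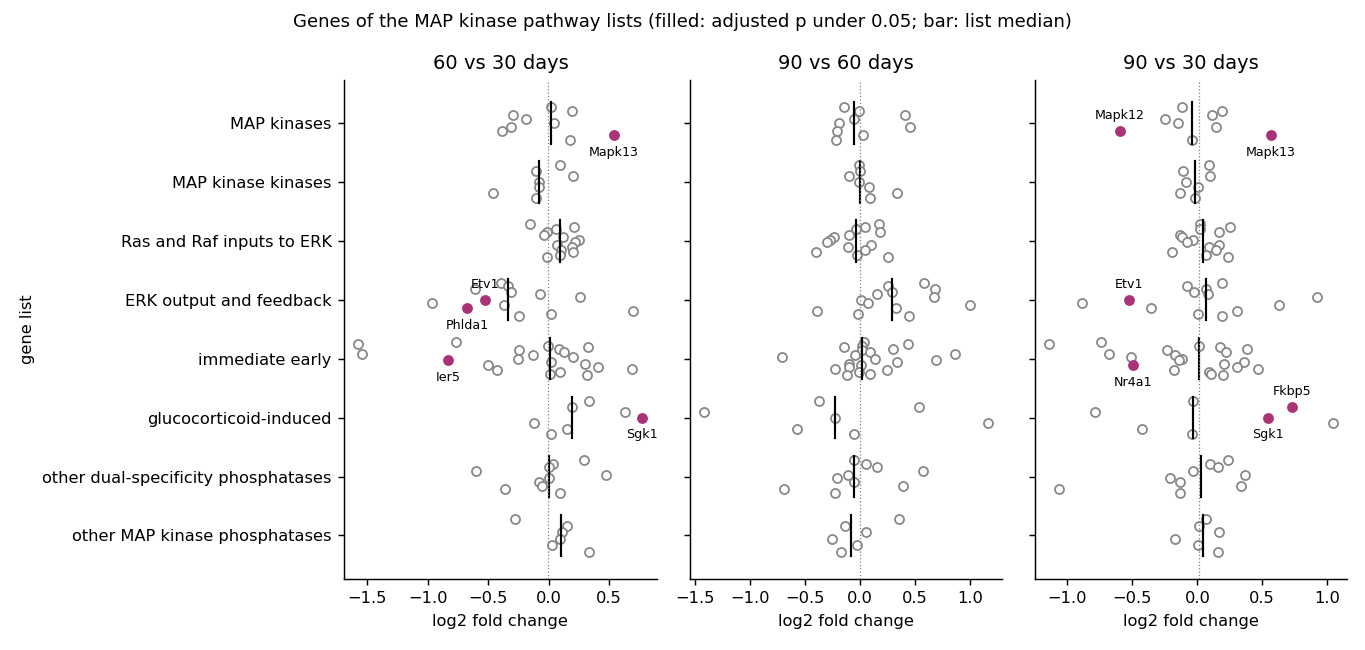
Log2 fold change (x axis) of the genes of 8 MAP kinase pathway lists (y axis) in the 3 pairwise comparisons, with filled points for an adjusted p under 0.05, bars for list medians and a dotted line for the median of all genes. In the first panel 10 of the 13 ERK output genes lie below 0 and 2 of them, Phlda1 and Etv1, pass the test.

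The immediate early genes, a class that includes Dusp1, were split in direction. Of 22 listed, 21 passed the filter, and from 30 to 60 days 11 had positive and 10 negative values, by edgeR 1 fell and 0 rose, and the median was 0.02. An unadjusted p under 0.05 in edgeR was found for 10 of the 21, against 12.4% of all genes. The list was drawn up with earlier results of these data known. DESeq2 called 3 lower (Ier5, Nr4a1 and Btg2, the last named after its value was seen), and library-size scaling called 0. The gene that fell was Ier5, at 12.8, 18.6 and 18.5 CPM at 30 days and 12.6, 7.82 and 7.72 CPM at 60 days (-0.83 ± 0.19, adjusted p = 0.037). Its groups nearly touch, and without sample 2 or 3 of the 30-day group the adjusted p was 0.168 or 0.138, without sample 2 or 3 of the 60-day group 0.236 or 0.0934, and without 90-day sample 3 it was 0.0652. It was 0.114 under library-size scaling and 0.0592 with only the 6 libraries of those days. Nr4a1, a nuclear receptor, had a lower level at 90 than at 30 days (-0.49 ± 0.13, adjusted p = 0.0366), a call lost without sample 1 or 2 of the 30-day group (adjusted p = 0.230 and 0.0547), sample 2 of the 60-day group (0.0631), or sample 2 or 3 of the 90-day group (0.170 and 0.169), and under library-size scaling (-0.25, adjusted p = 0.386). Fos read 4.19 ± 1.61 CPM at 30 days and 2.47 ± 0.254 CPM at 60 days (-0.77 ± 0.28, adjusted p = 0.244), and Junb 26.4 ± 4.94 and 22.3 ± 7.85 CPM (-0.25 ± 0.24, adjusted p = 0.739). Egr1 read 7.66, 33.6 and 25.1 CPM at 30 days and 7.68, 8.82 and 6.38 CPM at 60 days (-1.55 ± 0.52, adjusted p = 0.297). Sample 1 of the 30-day group sat within the 60-day range, and without it the difference was -1.94 (adjusted p = 0.000277). It was not called under the other 16 of 17 alternatives, with adjusted p up to 0.626, and was -1.11 without sample 2 of the 30-day group.

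Among 7 glucocorticoid-induced genes, all of which passed the filter, 1 rose from 30 to 60 days and 2 were higher at 90 than at 30 days by edgeR. From 60 to 90 days edgeR called 0, with 5 at an unadjusted p under 0.05 (10.8% of all genes). DESeq2 called Fkbp5 higher and Klf9 and Per1, both named after their values were seen, lower. DESeq2 also called Klf9 lower at 90 than at 30 days. Sgk1, a serum- and glucocorticoid-regulated kinase, read 64.9, 69.7 and 74.3 CPM at 30 days, 109, 123 and 126 CPM at 60 days and 90.9, 119 and 94.8 CPM at 90 days. Its 30-day libraries were the lowest without overlap (0.78 ± 0.12 at 60 days, adjusted p = 0.00139, and 0.55 ± 0.12 at 90 days, adjusted p = 0.0113). The latter adjusted p was 0.0709 and 0.0521 without 30-day sample 1 or 2, and 0.0982 without 90-day sample 2. Fkbp5, a co-chaperone of the glucocorticoid receptor, had means of 41.9 ± 9.11, 48.0 ± 2.40 and 69.5 ± 6.43 CPM and was higher at 90 than at 30 days (0.73 ± 0.13, adjusted p = 0.00392). Tsc22d3 (GILZ), a glucocorticoid target, read 29.3, 22.8 and 28.9 CPM, then 33.2, 33.7 and 35.2 CPM, then 28, 28.3 and 22.5 CPM. All its 60-day libraries were above the rest, and the differences of 0.33 ± 0.12 and -0.37 ± 0.12 had the signs of Dusp1 and adjusted p-values of 0.244 and 0.266.

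Phosphatases beside the 9 were also tested. Since 1.56%, 0.256% and 3.57% of all genes were called, 0 calls in a short list does not set it apart. Of 15 further dual-specificity phosphatase genes, 10 passed the filter and 0 were called by edgeR or limma-voom in any of the 3 comparisons, while DESeq2 called 1, Dusp26, lower at 90 than at 30 days. An unadjusted p under 0.05 in edgeR was found for 1, 0 and 1 of them from 30 to 60, 60 to 90 and 30 to 90 days. Dusp9, the remaining cytoplasmic ERK phosphatase, was among the 5 below the filter, with 0 to 10 counts per library. Of 8 other genes whose products dephosphorylate MAP kinases, 6 passed the filter and 0 were called by any of the 3 tools, with 1, 0 and 0 at an unadjusted p under 0.05 in edgeR.

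For each phosphatase gene, the genes with the most similar course over the 9 libraries were found by Pearson correlation of log2 CPM among the 13019 other genes with a mean of at least 1 CPM (13020 for Dusp10). The libraries come from 3 time points, and the correlations mostly restate differences between days. Dusp5 was closest to Ubn1 (r = 0.975), Bhlha15 (0.957) and Cpt1a (0.952). Bhlha15, a transcription factor of secretory acinar cells, read 365 ± 23.9, 511 ± 50.7 and 298 ± 42.3 CPM, and it fell from 60 to 90 days (log2 -0.78 ± 0.12, adjusted p = 0.00581), a call lost under library-size scaling and without 90-day sample 2. Dusp6 was closest to Rasgrp2 (0.952; means of 3.09, 1.74 and 2.92 CPM), Zfp217 (0.946) and Fzd7 (0.938), and Dusp1 to Cmip (0.960), Dclre1b (0.960) and Por (0.959). Dusp4 was closest to Rgl2 (0.984), Fgd3 (0.944) and Pla2g7 (0.944), and Dusp7 to Smim7 (0.970), Itpkb (0.947) and Plxnb2 (0.945). The closest to Dusp8 were St6galnac1 (0.915), Josd1 (0.904) and Pawr (0.896), to Dusp16 Foxk2 (0.944), Acvr2b (0.938) and Zfp995 (0.896), to Dusp10 Gm2415 (0.975), Vav3 (0.975) and Styk1 (0.959), and to Dusp2 Pik3r2 (0.942), Rxrb (0.935) and Sncg (0.930). With rank correlation, 0 of the 3 names were kept for Dusp1, Dusp2, Dusp5 and Dusp10, and 1 of 3 for Dusp4, Dusp6, Dusp7 and Dusp8.

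Several lists of cell type markers also differed between days, not all with the course of a phosphatase gene. All 8 endothelial markers were lower at 60 than at 30 days, with a median of -0.36 and 0 called by edgeR, DESeq2 or limma-voom (1 at an unadjusted p under 0.05), and all 8 were higher at 90 than at 60 days, with a median of 0.42 and 1 called, Sox18 (1.62 ± 0.24, adjusted p = 0.00342). Their summed level was 68.6 to 77.8 CPM, 61.4 to 64.8 CPM and 75.1 to 89.6 CPM, which has the direction of Dusp6 at a smaller size. Under library-size scaling 7 of the 8 were lower in the first step. The 4 Schwann cell markers were all lower at 60 than at 30 days (median -0.27), and 3 of 4 were higher at 90 than at 60 days (median 0.39), with 0 called by edgeR, DESeq2 or limma-voom and 0 and 1 at an unadjusted p under 0.05. Their summed level was 119 to 120 CPM, 111 to 117 CPM and 97.4 to 124 CPM. The granular duct markers were higher at 60 than at 30 days, with 5 of 6 called (3 without 30-day sample 2 and 2 without 60-day sample 1) and summed levels of 20500 to 28000 CPM, 38600 to 47100 CPM and 34100 to 46000 CPM. From 60 to 90 days their median was -0.03 and 0 were called. The 4 acinar markers summed to 1880 to 2450 CPM, 1770 to 2170 CPM and 1450 to 1630 CPM. At 90 days all 4 were lower than at 30 days, and edgeR called 2, the water channel Aqp5 (-0.57 ± 0.12, adjusted p = 0.0113) and the muscarinic receptor Chrm3 (-0.53 ± 0.12, adjusted p = 0.0148), named, like the basal cell factor Trp63, after their values were seen. Both calls were lost under library-size scaling and without 30-day sample 1 or 90-day sample 2, and that of Chrm3 also without 90-day sample 3. All 5 duct and basal markers were higher at 90 than at 30 days and 1 was called, Trp63 (0.92 ± 0.21, adjusted p = 0.0289), which was not called by limma-voom or without 1 of 5 libraries (30-day sample 1 or 2, 60-day sample 2, 90-day sample 2 or 3). They summed to 170 to 206 CPM, 179 to 204 CPM and 210 to 256 CPM. Among 8 T lymphocyte markers, 5 passed the filter and 0 were called by edgeR. From 60 to 90 days 4 had an unadjusted p under 0.05 (10.8% of all genes), and DESeq2 called 2 higher at 90 than at 30 days. Their summed level was 15.1 to 22.1 CPM, 11.2 to 22.5 CPM and 23.0 to 36.8 CPM. The 4 B and plasma cell markers summed to 3.97 to 9.57 CPM, 4.39 to 5.70 CPM and 13.4 to 57.4 CPM, and 6 macrophage markers to 119 to 223 CPM, 150 to 166 CPM and 155 to 267 CPM. The part of these cell types in the values of the phosphatase genes was not tested.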

How the data were processed

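Messenger RNA sequencing libraries were made from total RNA of gland sections with a SMARTER kit, per the labels' protocols. The authors deposited raw read counts per gene. The submitters' processing notes name fastp, STAR, featureCounts and the mouse build mm10. Versions, annotation, use of strand and filters are not given in the sources used here. The table's 3 other columns could not be tied to a listed sample and were left out. Symbols were found for 54409 of 54532 gene identifiers. Positions and exon lengths come from GENCODE M21 (GRCm38), and promoters from RefSeq (GRCm38.p6).

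Genes were filtered with filterByExpr in edgeR 4.0.16 (minimum count 10), scaled with TMM factors and fitted with 1 mean per time point over all 9 libraries (common biological coefficient of variation 0.150). Unless an alternative is named, each adjusted p-value is from edgeR's robust quasi-likelihood test with Benjamini-Hochberg adjustment over 15224 genes, with a threshold of 0.05. That of an alternative comes from its own fit and is adjusted over the genes tested there. A difference called higher or lower passed that threshold. A floor of 3 counts corresponds to 0.101 to 0.213 CPM. R 4.3.3, DESeq2 1.42.0, limma 3.58.1, Python 3.11.15 and matplotlib 3.10.9 were used. Data were simulated with the spread within groups estimated over all 9 libraries (14816 genes, 200 changed). In the simulated comparison of 90 with 30 days, the test found 63.2% of genes with a log2 change of 1. It found 94.3% of genes with a log2 change of 2, and unchanged genes made up 7.19% of its calls.

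The members and the gene lists were chosen with earlier results of these data known. The text names all 9 members, up to 3 called genes per list and comparison, a fixed set (Mapk3, Mapk8, Mapk14, Dusp9, Spry2, Spry4, Etv4, Etv5, Fos, Egr1, Junb, Tsc22d3, Fkbp5) and the 3 genes most like each member. A gene of the fixed set is not reported here. Alternatives were other size factors, library-size scaling, DESeq2, limma-voom, other filters, the 6 libraries of a comparison, the sample number as a block, and leaving out each library.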

Additional observations from a re-analysis of the deposited data

How the results depend on the processing

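The model called 238 genes from 30 to 60 days (173 higher, 65 lower), 39 from 60 to 90 days (14 and 25) and 544 from 30 to 90 days (275 and 269). DESeq2 called 376, 150 and 867, and the fit without a filter 459, 354 and 1045. Library-size scaling called 90 (79 higher, 11 lower), 28 (19 and 9) and 440 (406 and 34), and moved the median of all genes to 0.05, 0.17 and 0.24 on the log2 scale. Leaving out 1 library at a time gave 73 to 244, 16 to 103 and 184 to 703 genes. The counts were lowest without 60-day sample 2 (73), 90-day sample 2 (16) and 30-day sample 1 (184). From 30 to 90 days, 0 phosphatase genes were called, 2 under library-size scaling, 2 with DESeq2, 3 without a filter, and 0 to 1 when a library was left out. Equal sample numbers did not clearly pair the libraries. Correlations between deviations were -0.06 to 0.19, the highest for sample 1 between 90 and 30 days. Of 9 libraries, 4 matched their own number best. With the replicate block, 270, 92 and 717 genes were called, and 1 phosphatase gene from 30 to 90 days, Dusp8 (0.61, adjusted p = 0.0446). The block also lifted Etv5 over the threshold from 60 to 90 days (0.98, adjusted p = 0.00888) and from 30 to 90 days (0.60, adjusted p = 0.0453) and Nr4a1 from 30 to 60 days (-0.50, adjusted p = 0.0086), and put Ier5 from 30 to 60 days above 0.05 (-0.83, adjusted p = 0.0643). Over the 17 alternatives, the value from 30 to 60 days ran from 1.83 to 2.40 for Dusp1, 1.01 to 1.13 for Dusp5 and -1.55 to -1.44 for Dusp6, and from 60 to 90 days from -2.14 to -1.58, -1.83 to -1.35 and 1.14 to 1.44. Dusp10 could not be fitted with at least 10 counts in every library. The cause of these differences was not tested. Depth limits Dusp2 and Dusp10.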
